A study of Mus musculus with 12 samples.

Results

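Erythroid transcripts were followed in 3 sorted mouse cell types, none of which is a red cell, with 9 genes read in every library. The 9 genes were taken by symbol, in a choice made with earlier results of these data known. *Hba-a1*, *Hba-a2*, *Hbb-bs* and *Hbb-bt* encode the alpha and beta chains of adult hemoglobin. *Alas2* is the heme enzyme of red-cell precursors, and *Epor*, *Tfrc*, *Car1* and *Car2* come on earlier in the lineage. The LMPP table holds all 9 among 17445 rows and the bone marrow (BM) pDC table all 9 among 16896. The CD115-CDP table, with 16821 rows, gives 8, and *Epor* was not analysed here in those cells.

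Control *Hdac3* fl/fl mice and HDAC3-deficient *Hdac3* fl/fl CreERT2 mice were compared, all C57BL/6 and all given tamoxifen intraperitoneally for 5 days, with cells sorted 7 days later. Cre was driven from the *Rosa26* locus in all tissues, so cells outside the sorted populations lost HDAC3 too. LMPPs are lymphoid-primed multipotent progenitors, CD115-CDPs are dendritic cell precursors lacking the M-CSF receptor, and pDCs are the interferon-producing dendritic cells. Each cell type has 2 control and 2 HDAC3-deficient (KO) libraries, written control 1, control 2, KO 1 and KO 2. The labels do not say that 2 libraries came from separate mice, so p values measure the spread between these libraries, which may be technical.

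Red-cell precursors first switch on receptors for erythropoietin and iron-loaded transferrin, together with carbonic anhydrases. Heme synthesis and the globins follow and come to dominate the cell's RNA, and circulating reticulocytes still carry globin mRNA. Red cells and their precursors fill much of the bone marrow. According to the study's methods, erythrocytes were lysed and the antibody cocktail for lineage depletion held TER-119, a red-cell surface marker.

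Values are FPKM, fragments scaled to the transcript's length and to the library's size, and the 3 tables were normalised separately, so levels are compared within a table. LMPPs and CD115-CDPs were tested with limma on log2(FPKM + 0.5) and BM pDCs with edgeR on expected counts, and a gene is called at a Benjamini-Hochberg adjusted p under 0.05 over all genes tested. *Hdac3* measured 56.5 and 66.3 FPKM in control against 16.9 and 9.87 FPKM in KO LMPPs, 58.2 and 39.6 against 12.1 and 0.93 in CD115-CDPs, and 38.9 and 37.8 against 15.6 and 15.8 in BM pDCs. Only exon 3 is floxed, so transcripts without that exon still count. KO 2 of the CD115-CDPs stood apart, where 11288 genes exceeded 0, while its 3 companions had 13684 to 15173. Expected counts of BM pDCs summed to 1.81e+07 to 1.85e+07 a library, and for the other cell types the depth is unknown. In bulk samples such as these, fewer cells of a type and less RNA per cell cannot be told apart.

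The 4 hemoglobin genes form 2 pairs of near-identical copies, which limits how far each gene can be read by itself. *Hba-a1* (GRCm38.p6 chr11:32283672-32284486) and *Hba-a2* (chr11:32296492-32297310) differ in 1 of 429 coding bases, C381T counted from the A of the start codon. Their first 380 coding bases are the same, and so are the 74 bases compared after the stop codon. *Hbb-bs* (chr7:103826523-103827928, minus strand) and *Hbb-bt* (chr7:103812524-103813923, minus strand) differ in 1 of 444 coding bases, C417T. After their stop codons, 39 edits separate 131 bases, so reads from that end can tell the beta genes apart. The coding stretches around each difference are shown 5′ to 3′ from the GENCODE transcripts, bases 351 to 410 for alpha and 385 to 444 for beta, with the differing base in capitals.
Hba-a1: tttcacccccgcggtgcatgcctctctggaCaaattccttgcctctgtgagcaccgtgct
Hba-a2: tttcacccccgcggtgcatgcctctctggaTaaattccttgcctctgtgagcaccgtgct
Hbb-bs: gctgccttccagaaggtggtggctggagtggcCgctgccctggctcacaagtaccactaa
Hbb-bt: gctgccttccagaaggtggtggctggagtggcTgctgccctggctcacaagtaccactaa

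The 250 bases before the RefSeq start (GRCm38.p6) were read for the 7 genes with an entry, since *Hba-a1*, *Hba-a2*, *Hbb-bs* and *Alas2* had closely similar patterns over the libraries and *Hbb-bt* departed from them in CD115-CDPs. Capitals mark matches, on either strand, to the GATA motif (spelled AGATAA or AGATAG, or with a first T as TGATAA or as TGATAG), to the CACCC box, to the CCAAT box and to the TATAA box, letters known from globin promoters. The window of *Hba-a1* repeats that of *Hba-a2* shifted by 3 bases. Shown on each gene's own strand are *Hba-a2* at chr11:32296242-32296491, *Hbb-bs* at chr7:103827929-103828178 and *Hbb-bt* at chr7:103813924-103814173, both on the minus strand, *Alas2* at chrX:150547167-150547416, and *Epor* at chr9:21963577-21963826 on the minus strand.
Hba-a2: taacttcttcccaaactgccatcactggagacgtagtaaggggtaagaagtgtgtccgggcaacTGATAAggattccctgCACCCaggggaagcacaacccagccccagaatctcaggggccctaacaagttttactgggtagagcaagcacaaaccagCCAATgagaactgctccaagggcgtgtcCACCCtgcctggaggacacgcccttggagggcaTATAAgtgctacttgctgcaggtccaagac
Hbb-bs: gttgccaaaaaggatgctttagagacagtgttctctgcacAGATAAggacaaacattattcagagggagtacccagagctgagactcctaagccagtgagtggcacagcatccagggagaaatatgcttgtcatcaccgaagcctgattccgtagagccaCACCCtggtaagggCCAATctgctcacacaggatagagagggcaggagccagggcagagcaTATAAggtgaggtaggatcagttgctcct
Hbb-bt: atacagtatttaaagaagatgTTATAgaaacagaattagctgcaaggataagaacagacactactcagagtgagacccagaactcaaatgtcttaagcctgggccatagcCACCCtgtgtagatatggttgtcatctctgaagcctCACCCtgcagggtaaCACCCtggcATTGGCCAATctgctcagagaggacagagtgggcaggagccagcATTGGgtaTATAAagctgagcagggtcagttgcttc
Alas2: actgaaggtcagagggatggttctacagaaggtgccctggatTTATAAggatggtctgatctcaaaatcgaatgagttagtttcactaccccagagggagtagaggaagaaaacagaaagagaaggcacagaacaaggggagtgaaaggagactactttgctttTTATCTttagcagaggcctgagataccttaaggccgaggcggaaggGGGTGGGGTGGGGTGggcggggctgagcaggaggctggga
Epor: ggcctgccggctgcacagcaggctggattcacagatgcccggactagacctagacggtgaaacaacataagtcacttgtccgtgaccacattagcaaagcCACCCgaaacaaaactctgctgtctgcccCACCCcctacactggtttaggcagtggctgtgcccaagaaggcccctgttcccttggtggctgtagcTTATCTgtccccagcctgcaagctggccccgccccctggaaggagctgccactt

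A GATA match lay in the windows of *Hba-a1*, *Hba-a2*, *Hbb-bs*, *Alas2* and *Epor*, 5 of 7 genes, against 26.5% of the 32851 windows in the table. CACCC lay in 7 of 7 genes, against 52% of all windows, CCAAT in 5 of 7 against 33.8%, and TATAA in 6 of 7 against 22.8%. A gene counts here with a match in any of its windows, while the shares are of single windows. *Tfrc* has 2 windows, not shown, with CCAAT only in window 1 and TATAA only in window 2. *Hbb-bs* holds its GATA match 210 bases before the start, and *Hbb-bt* holds none of these 4 spellings in the window. A match is a description of letters and shows no binding.

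In LMPPs, hemoglobin separated 1 library from the other 3 and did not separate the genotypes. *Hba-a1* measured 3699.6 and 58.4 FPKM in control and 31.4 and 96.1 FPKM in KO libraries. *Hba-a2* measured 2415 and 28.3 against 15.2 and 48.3, and *Hbb-bs* 2692 and 40.4 against 17.4 and 52.4. Control 1 was far above everything else, and control 2 lay between the KO libraries for each of these genes. *Hbb-bt* followed less steeply, at 452 and 59.5 FPKM in control and 36.65 and 76.3 FPKM in KO. Together the 4 genes took 9259 FPKM, 1.49% of the library, in control 1, against 101 to 273 FPKM in the other 3 libraries, 33.9 times the second highest.

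*Alas2*, the first enzyme of erythroid heme synthesis, moved with them. It measured 15.5 FPKM in control 1, 0.15 in control 2, and 0.12 and 0.38 in the KO LMPPs, and it did not reach 1 FPKM in a second library and was not tested. Of 11822 genes, 24 exceeded their highest value in the other LMPP libraries by more than 2 on the log2(FPKM + 0.5) scale in control 1. Among the 10 largest were *Hbb-bs*, *Hba-a2*, *Hba-a1*, *Alas2*, *Hbb-bt*, the beta globin row *Hbb-b1* and 3 unannotated transcripts.

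Other markers of red-cell precursors did not share this pattern. Of 8 erythroid markers, only *Alas2* was highest in control 1. *Slc4a1* (the band 3 anion exchanger) measured 0 FPKM there, *Ahsp* (the alpha globin chaperone) 0.55 and *Klf1* (an erythroid transcription factor) 0.88. The 8 markers summed to 28.7 and 11.1 FPKM in control and 23.8 and 21.2 FPKM in KO libraries, and without *Alas2* control 1 was not the highest. The source of the globin RNA in control 1 was not tested.

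Fitted over both genotypes, 1 hemoglobin gene was called lower in KO LMPPs. *Hbb-bs* passed at -3.43 on the log2 scale (limma, SE 1.17, adjusted p = 0.047), with groups that overlap. Without control 1 the change was -0.41 (adjusted p = 0.31), and the call was lost in 6 of 13 alternatives. *Hba-a1* (-3.07, SE 1.16, adjusted p = 0.067), *Hba-a2* (-3.25, SE 1.23, adjusted p = 0.068) and *Hbb-bt* (-1.62, SE 0.59, adjusted p = 0.061) missed the threshold. Between the control libraries *Hba-a2* differed more than any other of the 11146 genes tested, *Hba-a1* more than all but 2.

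In CD115-CDPs no library stood as far apart, with hemoglobin sums of 34.8 to 92.1 FPKM, and the alpha and beta genes did not move as 1 group. *Hba-a1* measured 25.1 and 33.8 FPKM in control and 16.8 and 9.86 in KO libraries, *Hba-a2* 11.9 and 26.1 against 9.16 and 4.30, and *Hbb-bs* 13.5 and 9.27 against 5.79 and 2.88. For these 3 genes both KO libraries lay below both controls. *Hbb-bt* was the other way round, at 10.9 and 6.70 FPKM in control and 60.3 and 17.8 in KO. *Alas2* stayed under 1 FPKM, at 0.74 and 0.20 in control and 0.21 and 0 in KO libraries, and was not tested.

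*Hbb-bt* made up 44.6% and 42.0% of beta globin FPKM in control CD115-CDPs and 91.2% and 86.1% in KO CD115-CDPs. In LMPPs its share was 14.4% in control 1 and 59.3% to 67.8% in the other libraries, and in BM pDCs it was 15.2% to 23.3%. In CD115-CDPs the share separated the genotypes, in LMPPs it separated control 1 from the rest, and in BM pDCs the KO libraries, at 21.2% and 23.3%, lay just above the controls. Summed, the beta genes measured 24.3 and 16.0 FPKM in control and 66.1 and 20.7 FPKM in KO CD115-CDPs, which overlap. The alpha genes summed to 36.9 and 59.9 against 26.0 and 14.2 FPKM, which do not. How the counting divided reads between near-identical copies was not tested.

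**Figure D1:**
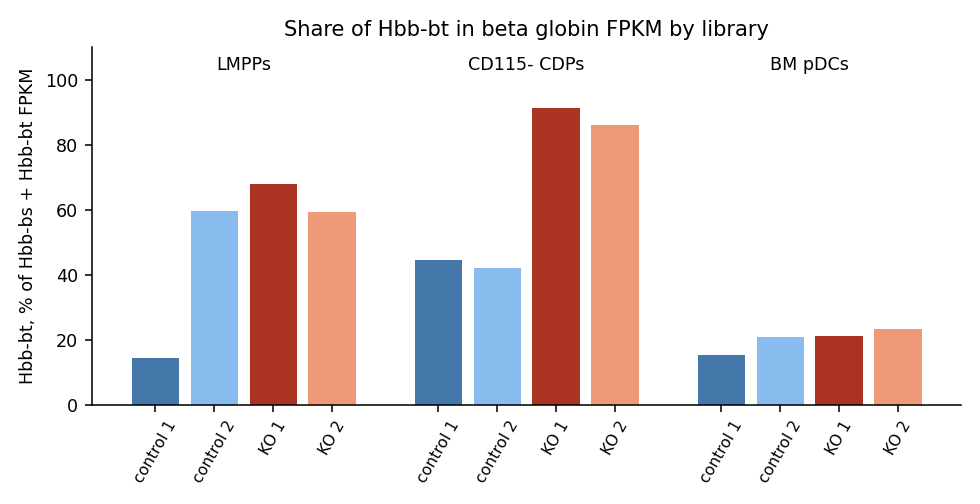
Bars give Hbb-bt FPKM as a percent of Hbb-bs plus Hbb-bt FPKM in each of the 12 libraries, grouped by cell type and coloured by library. The KO CD115-CDPs stand at 86.1% and 91.2%, above their controls at 42.0% and 44.6%, and LMPP control 1 stands at 14.4%, below the other LMPP libraries.

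In BM pDCs the KO libraries lay on both sides of the controls for most hemoglobin genes. *Hba-a1* measured 112 and 161 FPKM in control and 304 and 88.7 in KO libraries, and *Hba-a2* 67.7 and 89.3 against 128 and 42.5. *Hbb-bs* measured 71.5 and 106 FPKM in control against 173 and 44.8 in KO, and *Hbb-bt* 12.8 and 27.8 against 46.4 and 13.6. KO 1 was the highest library for all 4 genes, and KO 2 was the lowest except for *Hbb-bt*, where control 1 was lowest. *Alas2* kept the same order, at 1.19 and 1.84 FPKM in control and 3.37 and 0.93 in KO libraries, from 34 to 122 expected counts.

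None of these 5 genes was called in BM pDCs. Log2 changes were 0.64 for *Hba-a1* (SE 0.47, edgeR, adjusted p = 0.30), 0.24 for *Hba-a2* (SE 0.41, adjusted p = 0.67), 0.41 for *Hbb-bs* (SE 0.50, adjusted p = 0.54), 0.68 for *Hbb-bt* (SE 0.53, adjusted p = 0.34) and 0.63 for *Alas2* (SE 0.53, adjusted p = 0.38). Without KO 1 the changes turned to -0.44, -0.71, -0.81, -0.40 and -0.52, and *Hba-a1*, *Hba-a2* and *Hbb-bs* were called lower. Without KO 2 all 5 were called higher, by 1.26, 0.81, 1.07, 1.30 and 1.26. The direction therefore followed which KO library was kept. Over the wider globin list, which adds embryonic and other globin genes, 0 of 5 tested were called in BM pDCs (edgeR) and 0 of 4 in CD115-CDPs (limma). In LMPPs 1 of 4 fell, *Hbb-bs*, against 18.8% of all genes. Over all genes in BM pDCs 21.6% rose and 22.5% fell.

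KO 1 of the BM pDCs differed from LMPP control 1 in what rose beside the globins. All 7 erythroid markers with a row were highest in KO 1, summing to 29.5 FPKM against 5.19 and 8.01 in control and 12.9 in KO 2. *Klf1* measured 6.80 FPKM in KO 1 and 2.24 in KO 2, against 0.79 and 1.09 in control, and *Slc4a1* 4.48 and 0.82 against 0.93 and 1.59. The 10 genes with the largest excess in KO 1 were *Mup12*, *Hist1h4n*, *Dnajc19-ps*, *Hist1h2ad*, *Tspan8*, *Car2*, *Rhd* (a Rh blood group protein), *Klf1*, *Atp1b2* and *Epor*.

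**Figure D2:**
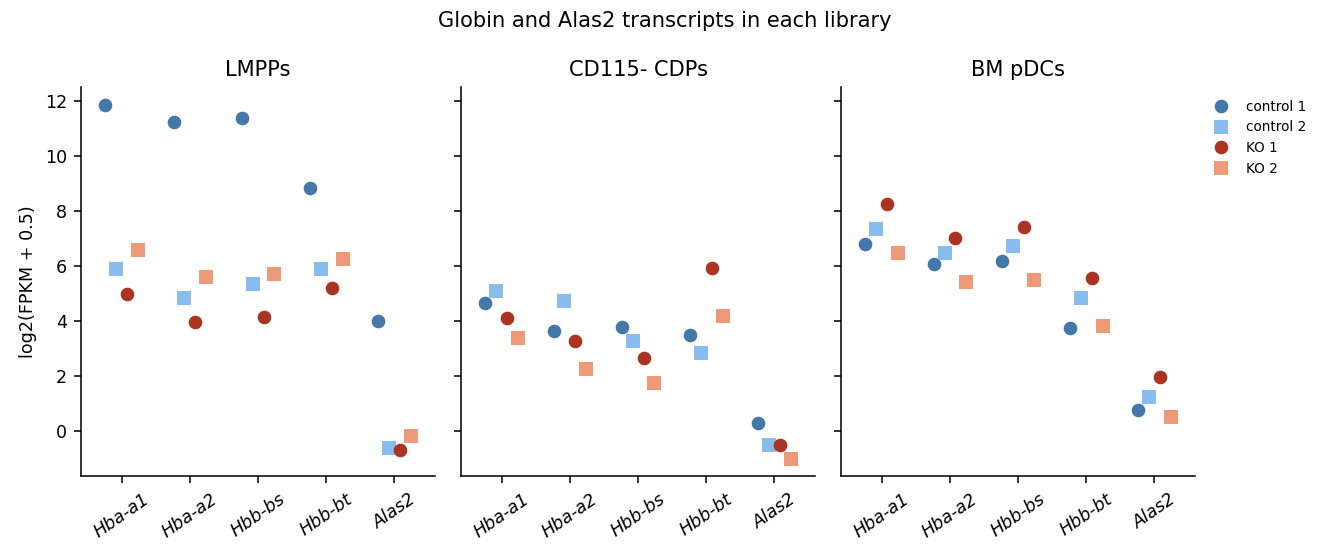
Points give log2(FPKM + 0.5) of the 4 globin genes and Alas2 in each library, one panel per cell type. LMPP control 1 lies apart for all 5 genes, while in BM pDCs KO 1 is the highest library for all 5 and KO 2 lies below or among the controls.

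Among the early genes, *Tfrc*, *Car1* and *Car2* separated the genotypes in LMPPs and in BM pDCs, with no overlap of the libraries. In BM pDCs KO 1 was still 2.87 times KO 2 for *Car2* and 3.78 times for *Epor*, beside 3.02 times for *Hba-a2*. In CD115-CDPs all 4 hemoglobin genes separated the genotypes too, while *Car1* overlapped. The counts that follow pool hemoglobin and early genes. Of the 7 members tested in LMPPs, 1 rose, against 4.31% of all genes, and 2 fell, *Hbb-bs* and *Car2*, against 18.8%. KO libraries lay above both controls for 1 of the 7 and below them for 2, against 17.6% and 48.2% of all genes. In BM pDCs 2 of 9 rose, against 21.6%, and 1 fell, against 22.5%, and the libraries did not overlap for 2 higher and 1 lower member, against 27.2% and 48.9%. In CD115-CDPs 0 of 7 were called by limma, as were 0.0% of all genes. At an unadjusted p under 0.05 by limma, 5 of the 7 passed against 9.01% of genes. They were *Car2* and all 4 hemoglobin genes, whose near-identical pairs are not independent counts. KO libraries lay above both controls for 2 of the 7 and below for 4, against 15.2% and 28.4%.

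*Car1* and *Car2* encode cytosolic carbonic anhydrases that interconvert carbon dioxide and bicarbonate, *Car1* being typical of red-cell precursors and *Car2* shared with stem cells and progenitors. Both lie on chromosome 3, at chr3:14766214-14808365 and chr3:14886269-14900770. In BM pDCs *Car1* measured 4.29 and 4.77 FPKM in control and 34.5 and 27.8 FPKM in KO libraries. *Car2* measured 4.79 and 7.56 against 104 and 36.1. Both KO libraries lay above both controls for each gene, and KO 1 was 1.24 times KO 2 for *Car1* and 2.87 times for *Car2*.

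*Car1* rose in BM pDCs by 2.92 on the log2 scale (SE 0.14, edgeR, adjusted p = 3.3e-05), ranking 35 by p among 12716 genes, on 93 and 102 expected counts in control and 749 and 608 in KO. *Car2* rose by 3.62 (SE 0.48, adjusted p = 0.0011), on 149 and 232 counts in control and 3218 and 1128 in KO. Over 11 alternatives *Car1* kept a change of 2.65 to 3.04 and *Car2* of 2.72 to 4.17, each called in all 11. Without KO 1, the library richest in globin, both were called with the hemoglobin genes lower.

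LMPPs showed *Car2* at a high level and in the opposite order. It measured 382 and 386 FPKM in control and 206 and 154 FPKM in KO libraries, a fall of 1.10 on the log2 scale (SE 0.18, limma, adjusted p = 0.0010). The control libraries differed 1.01-fold in *Car2* and 63.3-fold in *Hba-a1*. Only 241 and 220 genes had higher FPKM in the control libraries. *Car1* was low, at 4.03 and 4.62 FPKM in control and 1.95 and 3.80 in KO, with both KO libraries below the controls (log2 change -0.57, SE 0.31, adjusted p = 0.18).

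CD115-CDPs had *Car2* at 27.1 and 44.4 FPKM in control and 78.4 and 144 FPKM in KO libraries. Both KO libraries were above both controls, and the fitted difference was 1.60 on the log2 scale (limma, SE 0.42, adjusted p = 0.42). It was called without KO 1 (2.04, adjusted p = 6.1e-08) and without KO 2 (1.17, adjusted p = 0.00042), fits in which the lone KO library is assumed to vary like the controls. It was not called by limma when control 1 (1.25, adjusted p = 1.0) or control 2 (1.95, adjusted p = 1.0) was left out. *Car1* was near the floor, at 1.27 and 0.81 FPKM in control and 1.33 and 0 in KO, and its change reversed in 2 alternatives. *Car12*, *Car9* and *Car13* also have rows in the carbonic anhydrase list, in which 0 of 6 genes tested were called in CD115-CDPs. In LMPPs 1 of 6 fell (*Car2*), against 18.8% of all genes, and in BM pDCs 2 of 8 rose (*Car1* and *Car2*), against 21.6%. These counts lay near the background.

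*Tfrc* (chr16:32608896-32632794) encodes the transferrin receptor, which brings iron into red-cell precursors and into dividing cells of other kinds. In LMPPs it measured 6.93 and 7.93 FPKM in control and 20.8 and 16.1 FPKM in KO libraries, a rise of 1.25 on the log2 scale (SE 0.22, limma, adjusted p = 0.0013). In BM pDCs it measured 139 and 151 FPKM in control and 89.3 and 65.9 in KO, a fall of 0.77 (SE 0.13, edgeR, adjusted p = 0.0035) on 6042 to 13537 counts. In CD115-CDPs it measured 58.4 and 50.7 against 30.8 and 48.5 FPKM, with KO libraries below the controls and a log2 change of -0.49 (SE 0.33, adjusted p = 0.65). The KO libraries thus lay above the controls in LMPPs and below them in the other cell types, and the LMPP and BM pDC calls held in each of 14 and 11 alternatives.

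*Epor* (chr9:21958897-21963576, minus strand) encodes the erythropoietin receptor. It was near 0 in LMPPs, at 0.30 and 0.62 FPKM in control and 0 and 0.09 in KO, and was not tested. In BM pDCs it measured 0.53 and 0.58 in control and 2.19 and 0.58 FPKM in KO libraries, on 16, 18, 70.0 and 21 expected counts. KO 1 alone was high and KO 2 equalled control 2, and the fitted difference was 1.52 on the log2 scale (edgeR, SE 0.55, adjusted p = 0.060), 0.46 without KO 1 and 2.13 without KO 2.

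**Figure D3:**
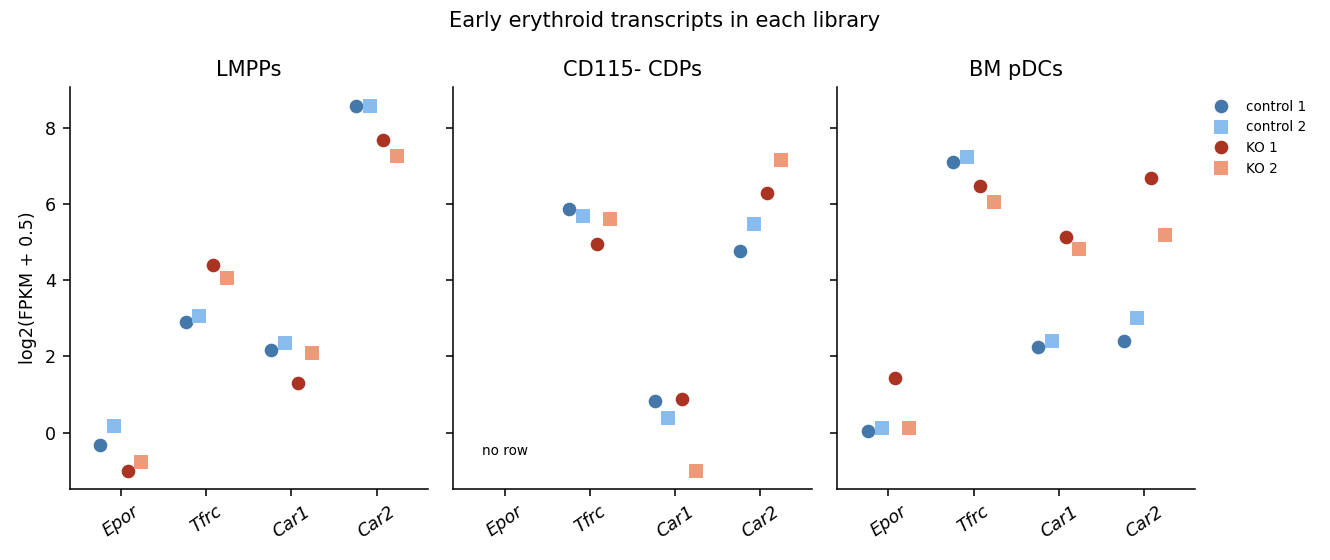
Points give log2(FPKM + 0.5) of Epor, Tfrc, Car1 and Car2 in each library, one panel per cell type, and Epor has no row in the CD115-CDP table. Car1 and Car2 of both KO libraries lie above the controls in BM pDCs, Car2 of both KO libraries lies below them in LMPPs, and Epor of BM pDCs is high in KO 1 alone.

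**Figure D4:**
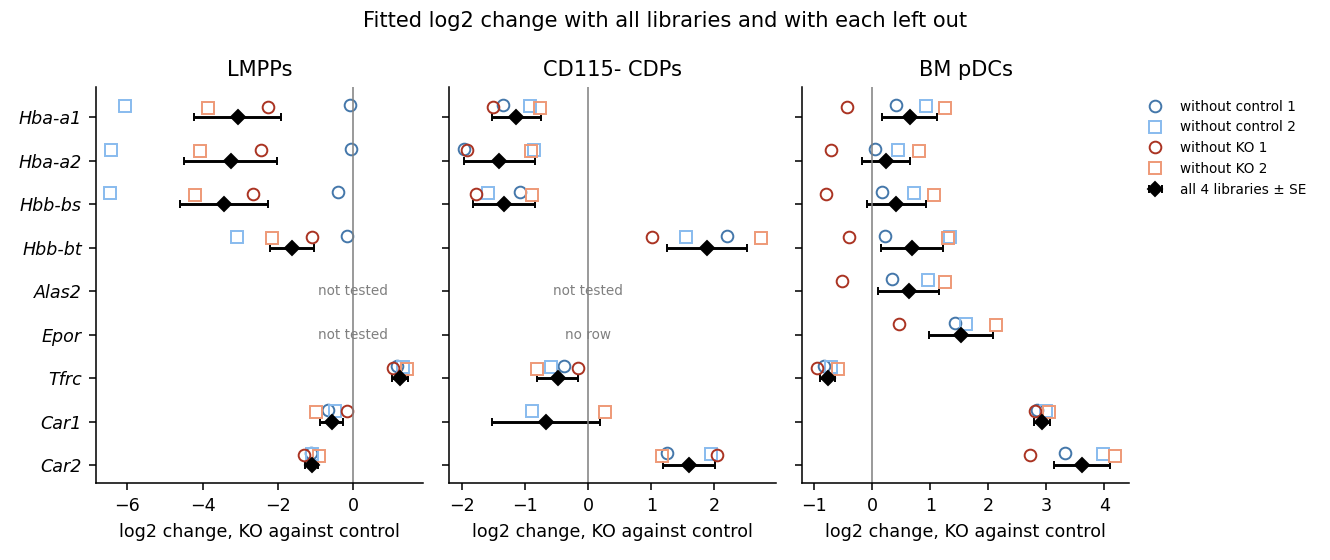
Diamonds with bars give the fitted log2 change of KO against control with its SE over all 4 libraries, and open symbols the change with 1 library left out, where the gene passed the filter. In BM pDCs the globin genes and Alas2 lie below 0 without KO 1 and above 0 in the other fits, while Car1, Car2 and Tfrc keep their side.

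By level, the order of the genes differed between cell types. In control 2 of the LMPPs *Car2* (386 FPKM) exceeded *Hbb-bt* (59.5), *Hba-a1* (58.4), *Hbb-bs* (40.4), *Hba-a2* (28.3), *Tfrc* (7.93) and *Car1* (4.62). In BM pDCs *Tfrc* and *Hba-a1* led in the controls, at 139 and 112 FPKM in control 1 and 151 and 161 in control 2, and these neighbours changed places between the libraries. In KO 2 of the BM pDCs the order was *Hba-a1* (88.7), *Tfrc* (65.9), *Hbb-bs* (44.8), *Hba-a2* (42.5), *Car2* (36.1) and *Car1* (27.8). In CD115-CDPs *Tfrc* was the highest member in control, and *Car2* in KO.

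Across the 12 libraries, centred within each cell type, the genes most like *Hba-a1* of 11560 were *Hba-a2* (Pearson r 0.993), *Hbb-bs* (0.991), *Alas2* (0.972), *Inf2* (0.883) and *Opa3* (0.877). *Hbb-bt* ranked 63 (0.677). Those most like *Car2* were *Slc35f5* (0.954), *Map3k20* (0.938), *Brca2* (0.928), *Acsl3* (0.913) and *Lin54* (0.908), with *Car1* at 0.568 and *Tfrc* at -0.632. These values describe libraries that share genotype, scale and, for the globins, 1 library with a very high value, and they carry no p.

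Like every list here, the next was written with earlier results of these data known. Counts over these lists therefore support nothing by themselves, and no list was tested as a set. Of 21 early erythroid genes, mostly transcriptional regulators, some were called lower in LMPPs and some higher in BM pDCs. In LMPPs 7 of 16 tested fell and 0 rose, against 18.8% and 4.31% of all genes, with a median log2 change of -0.50 against -0.23 over all genes. *Gfi1b*, a repressor needed for red cells and platelets, went from 27.4 and 33.4 FPKM to 2.94 and 4.90 (-2.83, SE 0.24, limma, adjusted p = 6.5e-06). *Gata2*, a factor of stem and progenitor cells, went from 22.0 and 24.4 to 8.56 and 8.06, and *Lmo2*, a bridging protein of the erythroid GATA complex, from 183 and 179 to 83.8 and 78.5. *Muc13*, a membrane mucin, went from 196 and 174 to 93.5 and 104 FPKM, also called.

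In BM pDCs 13 of 19 of these genes rose and 0 fell, against 21.6% and 22.5% of all genes, with a median of 1.17 against -0.01 over all genes. *Nfe2*, a globin and platelet gene regulator, went from 2.33 and 2.39 FPKM to 7.32 and 9.91 (2.04, SE 0.21, edgeR, adjusted p = 0.00038). *Lyl1*, a relative of *Tal1*, went from 20.7 and 18.1 to 35.4 and 44.0, and *Cbfa2t3*, a corepressor of that complex, from 50.0 and 45.4 to 77.7 and 86.9. *Mt2*, a metallothionein, went from 0.52 and 0.94 to 11.35 and 5.94. Without KO 1 13 rose, without control 1 or control 2 the count was 6 or 9, and limma on FPKM gave 10 higher and 3 lower of 17. In CD115-CDPs 0 of 13 were called, with 3 higher and 5 lower without KO 1 and 6 higher and 1 lower without KO 2.

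Late erythroid genes, a list that holds *Alas2*, divided the KO libraries of the BM pDCs. Of 26 tested, 11 rose and 1 fell (median 1.29), against 21.6% and 22.5% of all genes. Of the list, 28 of the 30 with a row were higher in KO 1 than in KO 2, 18 of them more than 2-fold, against 60.3% and 2.95% of genes tested. The list summed to 127 and 137 FPKM in control and 166 and 116 FPKM in KO libraries. *Tspan33*, a tetraspanin of red-cell precursors, measured 0.68 and 0.80 against 6.00 and 5.88 FPKM (3.13, SE 0.18, edgeR, adjusted p = 4.5e-05). *Hemgn* (hemogen, a nuclear protein of blood progenitors) went from 1.30 and 1.55 to 10.7 and 7.95, and *Rhag*, a Rh membrane glycoprotein, from 0.73 and 0.55 to 4.05 and 2.50. *Ube2l6*, a ubiquitin-like conjugating enzyme, fell from 42.2 and 46.2 to 27.3 and 23.3. Without KO 1 8 of 27 rose and 2 fell (median 0.34), without KO 2 18 of 28 rose and 2 fell, and limma on FPKM gave 7 higher and 2 lower of 18.

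In LMPPs 1 late gene rose and 5 fell of 11 tested (median -0.74), against 4.31% and 18.8% of all genes. *Ahsp* rose from 0.55 and 1.39 FPKM to 3.32 and 6.90 (1.92, SE 0.37, limma, adjusted p = 0.0027). Those that fell were led by *Ube2l6* (93.9 and 86.0 to 34.6 and 30.3), *Fam210b*, a mitochondrial protein (5.92 and 5.02 to 1.84 and 1.85), and *Bnip3l*, which clears mitochondria from reticulocytes (43.6 and 51.2 to 31.2 and 25.2). Among CD115-CDPs 0 of 8 late genes were called. Rescaling LMPP libraries by their median ratio, which moves the median of all genes from -0.23 to 0.00, gave 863 genes higher and 999 lower in place of 480 and 2096. Under it 2 late genes rose and 2 fell, and 1 early gene rose and 6 fell. Without control 1 or without control 2, 3 of 10 late genes fell.

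Of genes listed for erythropoietin signaling, *Epor* among them, 11 of 18 rose and 1 fell in BM pDCs, against 21.6% and 22.5% of all genes. *Epor* itself was not called (edgeR, adjusted p = 0.060), and signaling by its receptor was not tested. *Pim1*, a kinase, went from 65.4 and 65.7 FPKM to 94.9 and 111, *Stat5a*, the transcription factor that the receptor activates, from 20.7 and 19.5 to 27.6 and 30.0, and *Cish*, a feedback inhibitor, from 0.31 and 0.21 to 1.14 and 1.08, while the inhibitor *Socs3* fell from 12.7 and 14.7 to 8.68 and 7.63. Without control 1 the counts were 4 and 1, and without control 2 they were 3 and 0. In LMPPs 1 of 17 rose, the cytokine *Osm*, and 4 fell, among them *Jak2*, the receptor's kinase (3.77 and 2.52 to 1.13 and 0.48), *Socs3* and the adaptor *Gab2*, against 4.31% and 18.8% of all genes, so the count that fell lay near the background. By median ratio, or without control 2, 1 rose and 1 fell, and without control 1 the counts were 0 and 3. Among CD115-CDPs 0 of 16 were called.

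Heme genes that rose in BM pDCs, and iron genes that fell in LMPPs and BM pDCs, were called at shares near those of all genes, of which 4.31% rose and 18.8% fell in LMPPs and 21.6% rose and 22.5% fell in BM pDCs. *Alas1*, the enzyme that starts heme synthesis outside the red-cell lineage, rose from 63.4 and 75.0 to 118 and 101 FPKM in LMPPs (0.66, SE 0.17, limma, adjusted p = 0.012) and from 14.1 and 13.6 to 20.4 and 18.7 in BM pDCs (0.63, SE 0.09, edgeR, adjusted p = 0.0013). Of the heme genes 1 of 8 rose in LMPPs, *Alas1*, with 2 by median ratio and 0 without control 1. In BM pDCs 2 of 9 rose, among them *Alas1*, with 6 higher and 1 lower without KO 2 and 1 higher without control 1 or without control 2. In CD115-CDPs 0 of 8 were called, and *Alas1* measured 47.9 and 53.3 against 102 and 145 FPKM. Of the iron genes, 1 of 17 rose in LMPPs, *Tfrc*, and 3 fell, among them the second transferrin receptor *Tfr2*, and in BM pDCs 2 of 19 rose, *Pcbp2* and *Tfr2*, and 5 fell, among them the mitochondrial iron carrier *Slc25a28*. By median ratio, or without control 1, control 2 or KO 2, 1 iron gene fell in LMPPs. Among CD115-CDPs 0 of 18 were called.

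Markers of other cells were also read in the libraries richest in globin, and several differed between genotypes. In LMPP control 1, 0 neutrophil, megakaryocyte, macrophage or B cell genes exceeded the other libraries by over 2 on the log2(FPKM + 0.5) scale. Of late erythroid genes 2 of 14 did. In BM pDC KO 1 this limit cannot tell the lists apart, since 1 of 11162 genes passed it, and 0 of 20 late erythroid genes. The median excess in KO 1 was 0.62 for megakaryocyte genes (2 genes), 0.73 for late erythroid genes and -0.24 over all genes. It was -0.52 for macrophage, -0.96 for neutrophil and -1.08 for B cell genes. The neutrophil genes summed to 27.9 FPKM there, the lowest of the 4 libraries. In LMPPs 9 of 10 neutrophil genes fell, summing to 640 and 449 FPKM in control and 55.1 and 28.8 in KO, and 6 of 6 megakaryocyte genes fell, from 106 and 119 to 25.1 and 22.0, among them *Gp9*, *Itga2b* and *Gp5*. Of B cell genes 2 of 3 fell and of macrophage genes 1 of 2. Over all genes tested in LMPPs 18.8% fell. With control 1 or control 2 left out only 1 B cell gene passed the filter, so those fits could not test the list again. The macrophage median was -0.52, with -0.62 without control 1 and -0.42 without control 2. In BM pDCs, where 21.6% of all genes rose and 22.5% fell, 1 of 8 neutrophil genes and 2 of 5 megakaryocyte genes rose. The megakaryocyte genes summed to 3.82 and 2.41 FPKM in control and 6.82 and 4.06 in KO. Of 9 macrophage genes 2 fell. The neutrophil and macrophage counts lay below or near those shares. Of 9 B cell genes 2 rose and 3 fell, among those that rose *Cd22*, from 7.63 and 6.58 to 180 and 189 FPKM. Without control 2 the megakaryocyte, neutrophil and macrophage lists held 0 calls in BM pDCs (edgeR). In CD115-CDPs 0 of 9 neutrophil, 1 megakaryocyte, 4 B cell and 1 macrophage genes tested were called. Their part in the erythroid results was not tested.

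Markers of the sorted types were read as well. LMPPs had *Kit* at 67.5 to 138 FPKM, and 4 of 8 LMPP genes fell and 1 rose, against 18.8% and 4.31% of all genes. BM pDCs had *Siglech* at 1903 and 1951 FPKM in control and 945 and 855 in KO. Of pDC genes 6 of 10 fell, against 22.5% of all genes. CD115-CDPs had *Flt3* at 217 to 352 FPKM, a gene that LMPPs carried too, at 312 to 473 FPKM. *Csf1r* encodes CD115, which the CD115-CDPs were sorted to lack. It measured 139 and 95.3 FPKM in control and 64.7 and 21.5 in KO CD115-CDPs. Of CDP genes 0 of 6 were called.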

How the data were processed

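RNA-seq of 12 libraries was analysed, and genotypes came from the sample labels. Bowtie2, RSEM and the mm10 genome appear in the submitters' processing notes, without a version or a role for either tool. The authors deposited FPKM per gene for LMPPs and CD115-CDPs, and an expected count, FPKM and TPM for BM pDCs. The deposited TPM was not used. CD115-CDP rows carry gene IDs alone and were named through gene IDs, and 838 of them are unannotated transcripts.

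A gene reaching 1 FPKM in 2 or more of 4 libraries was fitted with limma 3.58.1 (eBayes with trend) on log2(FPKM + 0.5), which understates changes of low genes. Expected counts were rounded and fitted with edgeR 4.0.16 (filterByExpr, TMM, quasi-likelihood) in R 4.3.3, and the SE is the log2 change divided by the square root of F. Tests were two-sided, within 1 cell type. DESeq2 1.42.0 was an alternative. Fits were tested on simulated data with known changed genes, and the CD115-CDP fit recovered a smaller share of them than the others, least at the smallest fold, which bears on its lack of calls.

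The members and the 14 gene lists (globin, late erythroid, early erythroid regulators, heme synthesis, iron, erythropoietin signaling, carbonic anhydrases, megakaryocyte, neutrophil, macrophage, B cell, LMPP, CDP and pDC genes) were chosen with earlier results of these data known, so counts over them support nothing by themselves. Named were all members, up to 4 genes of smallest p per list, the 10 genes of largest excess in the library richest in globin, the 5 genes most like *Hba-a1* and *Car2*, erythroid and cell type markers, and *Hdac3*. In CD115-CDPs those 10 (KO 1) are *Castor1*, *Ptgir*, *Wfdc2*, *Tmprss4*, *Rab42*, *Gimap3*, *Trpm2* and 3 unannotated transcripts. Some genes that this rule names are not reported here.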

Additional observations from a re-analysis of the deposited data

Results flagged for a closer look

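For 3 genes the KO libraries all lay on one side of the controls in 1 cell type and all on the other side in another. The difference between cell types was not tested, because the tables were normalised separately.

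Mean *Tfrc* FPKM in KO was 2.49 times the control mean in LMPPs, 0.727 times in CD115-CDPs and 0.537 times in BM pDCs. *Car1* stood at 0.665 times control in LMPPs and 6.88 times in BM pDCs. *Car2* stood at 0.470 times control in LMPPs, 3.11 times in CD115-CDPs and 11.3 times in BM pDCs.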

How the results depend on the processing

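With 2 libraries a group, leaving 1 out or adding a block rests on the spread pooled over genes. *Car2* and *Tfrc* in LMPPs and *Car1*, *Car2* and *Tfrc* in BM pDCs kept direction and call in the 14 and 11 alternatives run. The causes of the shifts below were not tested, and limits set by depth could not be assessed for FPKM.

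Members called in LMPPs numbered 3, and 6 with a floor of 5 FPKM. With 1 library left out they numbered 2 to 7 in LMPPs (2 without control 1, 6 without control 2, 7 without KO 2), 0 to 5 in CD115-CDPs (5 without KO 1 or KO 2) and 3 to 9 in BM pDCs (6 without KO 1, 9 without KO 2). Over all genes, LMPP calls were 2576, 501 with no filter, 1651 by quantile normalisation and 846 to 4016 with 1 library left out. CD115-CDP calls by limma were 0, 2 by quantile normalisation and 1 to 5056 with 1 left out, and BM pDC calls were 5611 and 2750 to 7005.

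Libraries share only a replicate number: the correlation of same-numbered deviations was -0.10 in LMPPs, 0.24 in CD115-CDPs and -0.23 in BM pDCs. With that number as a replicate block, 6 members were called in LMPPs and 2 in CD115-CDPs (*Car2* and *Hbb-bt*), with 393 genes in all there. The crossed pairing, chosen after seeing the data, gave 6 members in LMPPs and 5 in BM pDCs.

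Directions turned for *Car1* in CD115-CDPs, from -0.67 to 0.21 by quantile normalisation, with -0.89 to 0.27 over fits with 1 library left out, and for *Hba-a2* in BM pDCs, to -0.074 by limma on FPKM. In BM pDCs the ranges with 1 library left out were -0.44 to 1.26 for *Hba-a1*, -0.71 to 0.81 for *Hba-a2*, -0.81 to 1.07 for *Hbb-bs*, -0.40 to 1.34 for *Hbb-bt* and -0.52 to 1.26 for *Alas2*, each lowest without KO 1.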
